A study of Mus musculus with 12 samples.

Results

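The Hedgehog signal and the homeobox genes of the ventral neural tube were followed here through 10 genes: *Shh*, *Ptch1*, *Gli1*, *Gli2*, *Gli3*, *Nkx2-1*, *Nkx2-4*, *Nkx2-9*, *Nkx6-1* and *Nkx6-2*. They were chosen by name and found by Ensembl identifier among the 45706 genes counted, and all 10 were present. RNA was sequenced from 4 groups of 3 mouse cultures, each replicate made on a different day. All cells came from embryonic stem cells of strain C57BL/6 that carry GFP in one copy of *Sox1*, the early neuroepithelial transcription factor. Baseline libraries were Sox1-negative, glia-producing neural progenitor cells (NPCs). Sox1posGP libraries were NPCs selected for GFP after the *Sox1* promoter had been targeted with gRNAs and the activator dCas9-VP64. The libraries labelled NSC were neural stem cells, that is, unsorted neuroepithelial cells early after neural induction, and those labelled NR were GFP-sorted neural rosettes. The dCas9-VP64 lines were clonal, and the paper states that its biological replicates used different clonal lines. Which line gave each Baseline and Sox1posGP library is not stated in the sources used here. By the labels Baseline and NSC were not sorted whereas NR and Sox1posGP were. The paper speaks of sorting cells for the transcriptomes of NPCs with and without induction, but does not name the Baseline libraries. If the labels hold, sorting and induction cannot be told apart in the NPC comparison.

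Sonic hedgehog, encoded by *Shh*, is secreted by the notochord and floor plate. It binds Patched1, which otherwise holds Smoothened inactive, and the signal reaches the nucleus through the Gli zinc finger proteins. *Gli1* and *Ptch1* are themselves targets of the pathway and are widely used as its readouts, while Gli3 acts largely as a repressor without ligand and Gli2 largely as an activator with it. In the neural tube graded signal sets up domains marked by homeobox genes such as *Nkx6-1*, *Nkx6-2* and *Nkx2-9*, and in the forebrain and hypothalamus *Nkx2-1* and its close relative *Nkx2-4* mark ventral territory.

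Total counts per library ranged from 3407066 to 6315574 in Sox1posGP, 4939268 to 18351483 in Baseline, 16707006 to 34594885 in NR and 29046205 to 43095688 in NSC. A group total of 3 counts, used as the floor, corresponds to a CPM value, that is, counts scaled to a common library size, of 0.104 in Baseline and 0.19 in Sox1posGP, but to 0.0282 in NSC and 0.0362 in NR. Floors and counting intervals cover counting error only. A ratio given below as "at least" sets the observed counts of a group over the floor of a group with 0 counts. It leaves out the counting error of the observed counts, so it is no lower limit where these are few. *Sox1*, the targeted gene, stood at 4.83 to 6 CPM in Baseline, 20.3 to 21.7 in Sox1posGP, 48.6 to 64.9 in NSC and 4.62 to 20 in NR, where NR 1 was lowest, under every Baseline library. The summed level of 7 glial markers was 3222 to 3611 CPM in Baseline and 1518 to 1589 in Sox1posGP, against 365 to 657 in NSC and 147 to 279 in NR. *Slc1a3* and *Fabp7*, of radial glia and astrocytes, made up most of this sum, and both were lower in Sox1posGP (-1.14 and -1.10, edgeR adjusted p = 3.70e-07 and 0.00485). Of the other 5, *Aqp4* and *Aldh1l1*, of astrocytes, were called higher there and *Gfap*, *S100b* and *Slc1a2* were not called. Both calls rest on few counts. *Aqp4* had 0 to 1 per Baseline library and 0 to 4 per Sox1posGP library, and *Aldh1l1* had 3 to 11 and 5 to 19. The 8 neuroepithelial markers summed to 511 to 616 CPM in Baseline, 579 to 609 in Sox1posGP, 1783 to 1909 in NSC and 470 to 1018 in NR. The similar sums of the NPC groups covered changes in both directions, with *Sox1* (1.97), *Nes* (1.34) and *Cdh2* (1.11) higher and *Sox2* (-1.80) and *Sox3* (-1.20) lower in Sox1posGP on the log2 scale. The 6 pluripotency markers reached 1408 to 2694 CPM in NR against 46.5 to 144 in NSC and 6.47 to 9.34 over the NPC libraries, all 6 with counts in each group. The libraries labelled NR thus carried a high level of pluripotency RNA although sorted for *Sox1*-driven GFP, and NR 1 held little *Sox1*. Whether the labels NR and NSC hold could not be settled here, so both names stand below for the libraries so labelled, and the part of the pluripotency RNA in the results was not tested. In bulk RNA, fewer cells of a type and less RNA per cell cannot be told apart.

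The results on *Nkx2-4* and *Nkx2-1* turn on telling 2 similar transcripts apart. *Nkx2-4* lies on the minus strand at chr2:147083316-147085445 and *Nkx2-1* on the minus strand at chr12:56531958-56536908 (GRCm38, GENCODE M21). Read length and the rule for reads that match several genes are not given in the sources used here. An exchange of reads between the 2 transcripts therefore remains uncertain. *Nkx2-9* shares identical runs of up to 42 bases with *Nkx2-1* and up to 35 with *Nkx2-4*. It had 5145 counts in NSC and 1673 in NR, against 109 and 27 for *Nkx2-1* and 14 and 35 for *Nkx2-4*. The part of reads from *Nkx2-9* in these low values was not tested. *Nkx6-1* at chr5:101658139-101664996 and *Nkx6-2* at chr7:139579376-139582797, both on the minus strand, matched at 100 bases of their most similar stretch of 120, with a longest shared run of 17. The stretches follow, 5′ to 3′, with the bases that differ in capitals, because the levels of these related transcripts differed in Baseline.
Nkx6-1: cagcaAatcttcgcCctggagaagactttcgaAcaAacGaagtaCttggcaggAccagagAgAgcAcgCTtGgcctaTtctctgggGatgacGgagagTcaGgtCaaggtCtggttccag
Nkx6-2: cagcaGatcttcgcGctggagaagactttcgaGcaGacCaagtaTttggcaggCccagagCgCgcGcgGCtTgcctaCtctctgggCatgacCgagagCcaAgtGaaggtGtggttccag
The Gli transcripts matched at 84.2% to 88.3% in their most similar 120 bases, with shared runs of 14 to 25 bases.

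Between Sox1posGP and Baseline NPCs *Nkx2-4* was higher and *Ptch1* lower, and the other members tested were not called. Differences were tested with edgeR's quasi-likelihood test over 17003 genes, and a gene was called at a Benjamini-Hochberg adjusted p under 0.1 together with a p under 0.05. Below, "edgeR adjusted p" means this value. Of the 10 genes 9 passed the filter on low counts and *Nkx2-1* did not. In Sox1posGP against Baseline 1 of the 9 was called higher, where 21.6% of all genes tested were, and 1 was called lower, where 22.7% were. Their median log2 fold change was 0.43 against 0.00 over all genes.

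**Figure D1:**
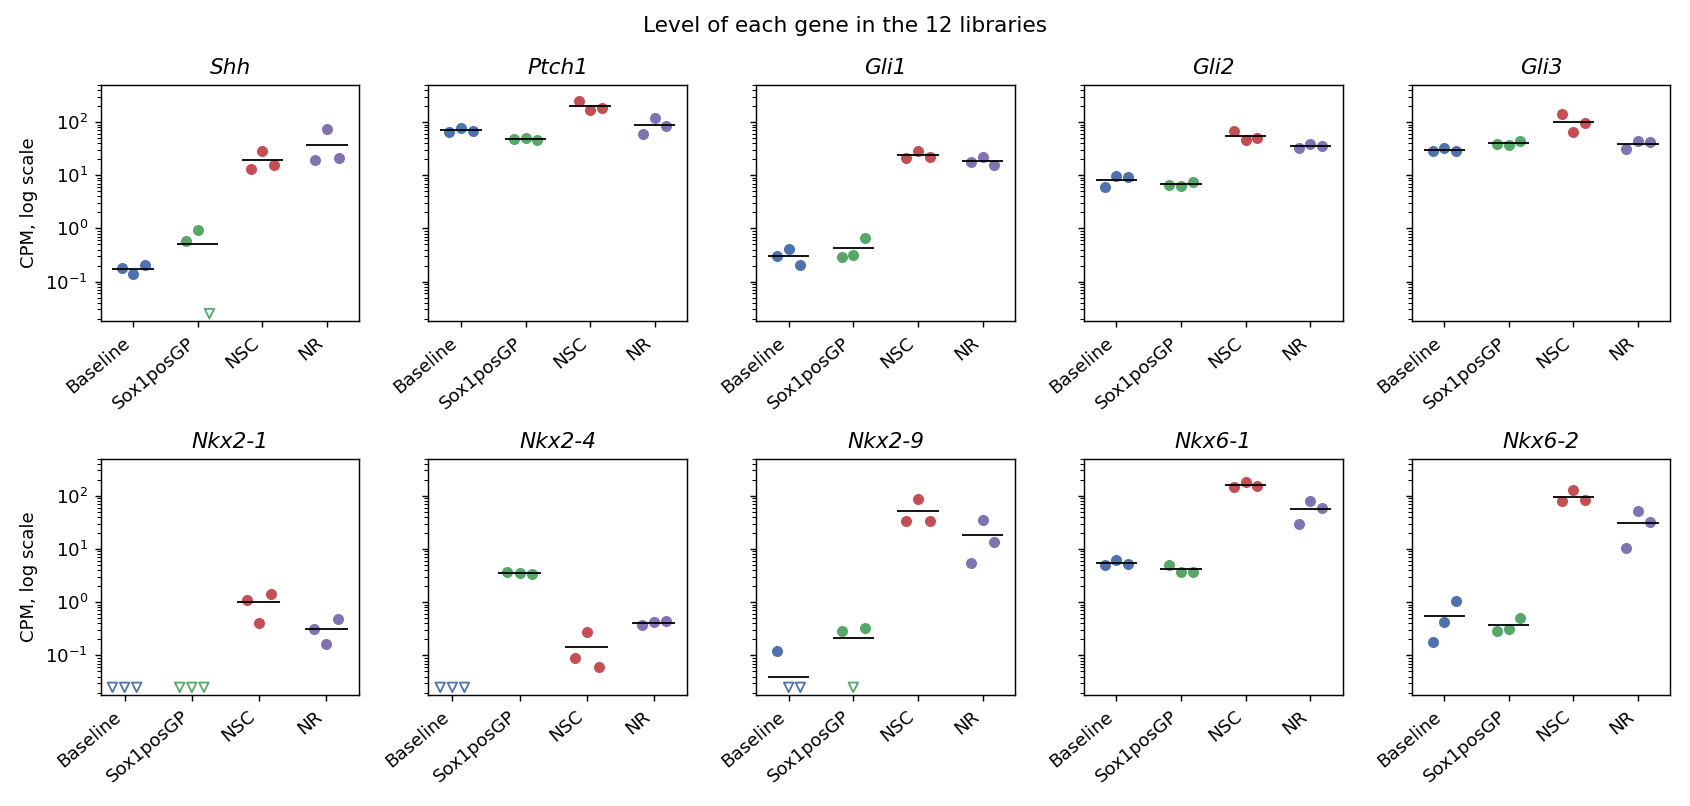
Level of each of the 10 genes in CPM on a log axis in the 12 libraries, by group. Filled points are libraries, open triangles at the bottom are libraries with 0 counts, and black lines are group means; *Nkx2-4* is highest in Sox1posGP at 3.34 to 3.76 CPM, whereas the other 9 are highest in NSC or NR.

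*Shh*, which encodes the ligand, was almost absent from both NPC groups. It stood at 0.179, 0.14 and 0.209 CPM in Baseline and at 0.579, 0.942 and 0 CPM in Sox1posGP, from 5 and 8 counts in all. In NSC it reached 13.4, 28.3 and 15.8 CPM, and in NR 19.3, 72.9 and 21.2 CPM. The NPC groups overlapped, every NSC and NR library lay above every NPC library, and NR 2 stood far above the other NR libraries. Over the pooled counts *Shh* was 104-fold higher in NSC than in Baseline (95% counting interval 44.7 to 322) and 231-fold higher in NR (98.7 to 711), with edgeR adjusted p of 8.43e-06 and 1.47e-06. Sox1posGP and Baseline differed by a log2 fold change of 1.5 with a 95% interval from -2.22 to 5.23, so a change of either direction was not detectable at this depth (edgeR adjusted p = 0.545). Against NSC and NR the Sox1posGP level was lower 36-fold (18.2 to 83.4) and 79.4-fold (40.2 to 184), with edgeR adjusted p of 6.08e-05 and 7.96e-06. *Shh* shares 446 exonic bases with *9530036O11Rik* and 361 with *Gm26894*, both on the opposite strand. These had at most 18 and 23 counts in a library, and whether strand was used is not stated, so the few NPC counts of *Shh* are uncertain.

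*Shh* was also called higher in NR than in NSC, with a log2 fold change of 0.99 (SE 0.44, edgeR adjusted p = 0.0765), although the groups overlapped. Without NR 2 the difference was 0.08 (edgeR adjusted p = 0.838), and the call was lost as well without NSC 1 (0.76, 0.232) or without NSC 3 (0.84, 0.208). It was lost too in a fit of only the 2 groups (0.96, edgeR adjusted p = 0.197) and with DESeq2's Wald test (0.99, DESeq2 adjusted p = 0.293). Leaving out NR 2 also moved the fitted value against Baseline from 7.72 to 6.81 and that of Sox1posGP against NR from -6.21 to -5.31. Leaving out Sox1posGP 2 or Sox1posGP 3 moved the latter to -7.44 or -5.55, and that against NSC from -5.22 to -6.46 or -4.57. In NR 2 the notochord and mesoderm gene *T* stood at 79.8 CPM against 27.6 and 21.6 in the other NR libraries, and *Foxa1*, a factor of floor plate and endoderm, at 66.9 against 26.8 and 30.8. *Foxa2*, which marks floor plate, notochord and endoderm, stood at 30 CPM there against 13.9 and 19.6. *Noto*, a notochord gene, stood at 0.226 against 0.185 and 0.14, from only 7, 3 and 5 counts. Between the groups *T* (4.25) and *Foxa1* (0.70) were called higher in NR than in NSC. *Foxa2* was called lower in NR (-0.69, edgeR adjusted p = 0.0399), with 47.1 CPM in NSC 2, and *Noto* was not tested. The 8 mesoderm and endoderm markers summed to 115 CPM in NR 2, to 97.9 and 76.6 in the other NR libraries, and to 9.6 to 15.9 in NSC. *T* made up most of the NR 2 sum. The rest of that list went the other way, with a lower sum in NR 2 than in either other NR library. The part of notochord, floor plate, mesoderm or endoderm cells in the *Shh* level was not tested. These 4 genes were chosen for this comparison after their values were seen.

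*Ptch1*, the Hedgehog receptor and a target of the pathway, was the member with the highest CPM per kb of longest coding transcript in both NPC groups. With the union of exons as the length it still led in Baseline, but in Sox1posGP *Gli3* led at 4.17 CPM per kb against 3.39 for *Ptch1*. *Ptch1* stood at 66.4, 76 and 69.3 CPM in Baseline and at 47.8, 50.2 and 46 CPM in Sox1posGP. The Sox1posGP libraries all lay below the Baseline libraries. The log2 fold change was -0.55 (SE 0.22, 95% interval -1.02 to -0.09), a call with an edgeR adjusted p of 0.0596. It was lost when any 1 of the 6 libraries was left out, with values of -0.59 to -0.51 and edgeR adjusted p of 0.101 to 0.157, and with library totals alone (-0.46, 0.151). It had a smaller edgeR adjusted p in a fit of only the 2 groups (-0.50, SE 0.09, 4.58e-05), with no filter on low counts (-0.55, 1.25e-04) and with the replicate block (-0.55, 0.0498).

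In NSC *Ptch1* reached 252, 167 and 182 CPM, and in NR 59.5, 118 and 83.4 CPM. It was higher in NSC than in Baseline by a log2 fold change of 1.51 (SE 0.20, edgeR adjusted p = 1.43e-05), with no overlap. NR and Baseline overlapped and were not called different (0.31, 95% interval -0.13 to 0.74, edgeR adjusted p = 0.181), a value that passed without NR 1 (0.48, 0.018) and with no filter on low counts (0.33, 0.0119). NR lay below NSC by 1.20 on the log2 scale (-1.20, SE 0.20, edgeR adjusted p = 2.58e-04). The order of group means was therefore NSC, NR, Baseline and Sox1posGP at 200, 87, 70.6 and 48 CPM, in which the neighbours NR and Baseline did not differ beyond their spread.

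*Gli1*, the Gli gene that is itself switched on by the pathway, was close to the floor in both NPC groups. Its levels were 0.298, 0.419 and 0.209 CPM in Baseline and 0.29, 0.314 and 0.667 CPM in Sox1posGP. They were 21, 28.7 and 21.6 CPM in NSC and 17.4, 21.7 and 15.8 CPM in NR. Baseline and Sox1posGP held 9 and 7 counts of it in all. Pooled counts of *Gli1* were 74.2-fold higher in NSC than in Baseline (95% counting interval 39 to 163) and 58.6-fold higher in NR (30.8 to 128), with edgeR adjusted p of 4.70e-10 and 8.80e-10. The NPC groups overlapped, with a log2 fold change of 0.48 (95% interval -0.76 to 1.73, edgeR adjusted p = 0.637) that turned to -0.04 without Sox1posGP 3. Sox1posGP lay below NSC 52.6-fold (25.5 to 131) and below NR 41.5-fold (20.1 to 103), with edgeR adjusted p of 2.36e-09 and 4.64e-09. NR and NSC overlapped, and their difference of -0.37 (SE 0.17, edgeR adjusted p = 0.0861) lost its call without NSC 2 (-0.23, 0.273), without NR 1 (-0.34, 0.175) and without NR 3 (-0.28, 0.276). It was also lost with DESeq2 size factors (-0.35, edgeR adjusted p = 0.1) and upper-quartile scaling (-0.32, 0.128). *Gli1* overlaps *Arhgap9* on the opposite strand by 62 exonic bases, and whether strand was used in counting is not stated.

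*Gli2* and *Gli3* stayed above the floor in every library. *Gli2* stood at 6.03, 9.49 and 9.18 CPM in Baseline, 6.66, 6.28 and 7.51 in Sox1posGP, 67.5, 47 and 49.2 in NSC and 32.9, 38.2 and 35.1 in NR. The 3 clear steps were NSC above NR above both NPC groups, which overlapped. Its log2 fold change against Baseline was 2.78 in NSC (SE 0.19, edgeR adjusted p = 1.46e-08), 2.16 in NR (SE 0.19, 1.62e-07) and -0.22 in Sox1posGP (SE 0.22, 0.495), and NR lay below NSC by 0.62 (-0.62, SE 0.16, 0.0056). Sox1posGP lay below NSC (-3.00, SE 0.20, edgeR adjusted p = 1.73e-08) and NR (-2.38, SE 0.20, 1.62e-07).

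*Gli3*, which encodes the main repressor, stood at 28.5, 32.1 and 29 CPM in Baseline, 39.1, 36.9 and 44 in Sox1posGP, 139, 64.7 and 97.2 in NSC and 30.6, 44.3 and 42.9 in NR. All 3 Sox1posGP libraries lay above the Baseline libraries, but the log2 fold change of 0.43 was not called (SE 0.24, 95% interval -0.09 to 0.94, edgeR adjusted p = 0.185). It passed in a fit of only the 2 NPC groups (0.48, edgeR adjusted p = 5.42e-04) and with no filter on low counts (0.43, 0.0158). NSC exceeded Baseline by 1.75 (SE 0.23, edgeR adjusted p = 9.02e-06), NR by 1.35 (NR against NSC -1.35, SE 0.21, 1.97e-04) and Sox1posGP by 1.33 (Sox1posGP against NSC -1.33, SE 0.23, 1.42e-04). NR overlapped with both NPC groups, at 0.40 against Baseline (SE 0.22, edgeR adjusted p = 0.12) and 0.02 for Sox1posGP against NR (95% interval -0.46 to 0.51, 0.932). The NR value against Baseline passed without NR 1 (0.51, edgeR adjusted p = 0.0542) and with no filter on low counts (0.42, 0.00503).

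Levels of different genes are compared here per kilobase of the longest coding transcript, or of the exon union where that is named. Per kilobase of the longest coding transcript, *Gli3* made up 73.7% ± 3.74 (SD, n = 3) of the summed Gli level in Baseline and 81.3% ± 0.562 in Sox1posGP. *Gli1* made up 1.52% ± 0.442 and 1.69% ± 0.671. In NSC the shares were 23.2% ± 8.15 for *Gli1*, 31.2% ± 0.999 for *Gli2* and 45.6% ± 8.67 for *Gli3*, and in NR they were 30.8% ± 3.29, 36.5% ± 1.64 and 32.6% ± 3.75. By group mean *Gli3* held the largest share in both NPC groups and in NSC, and *Gli2* did in NR. The range of *Gli3* over the NPC groups, 71.2% to 81.7%, did not overlap that in NSC, 35.9% to 52.6%.

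**Figure D2:**
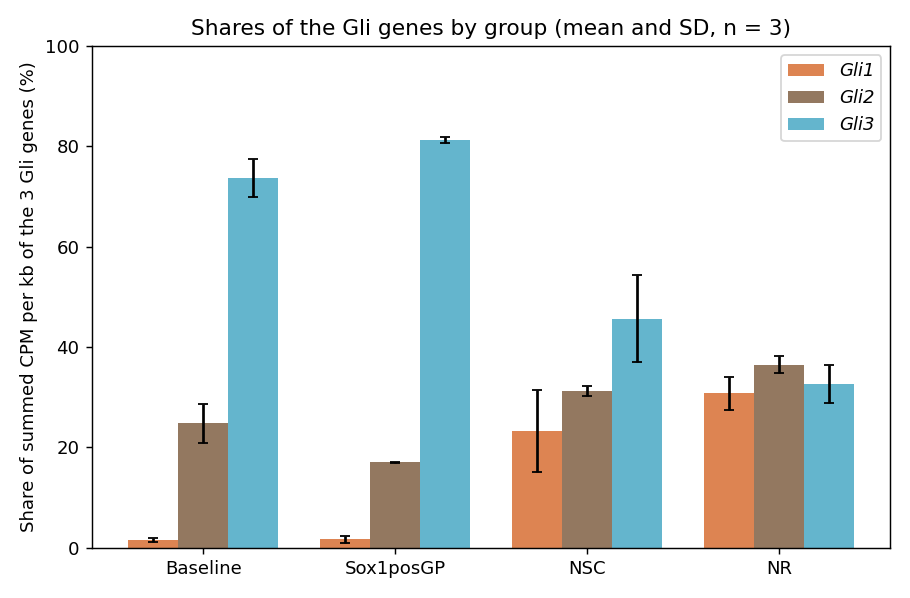
Share of each Gli gene in the summed level of the 3, in percent of CPM per kb, by group, as mean and SD of 3 libraries. *Gli3* holds 73.7% and 81.3% in the NPC groups, while the 3 shares lie between 23.2% and 45.6% in NSC and NR.

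*Nkx2-4*, a homeobox gene of the developing hypothalamus, was the only member called higher in Sox1posGP. It had 0 counts in all 3 Baseline libraries and 13, 23 and 20 counts in Sox1posGP, or 3.76, 3.61 and 3.34 CPM. The 2 groups did not overlap and the 3 Sox1posGP values were close to each other. Against the floor of 3 counts over the Baseline group, *Nkx2-4* was at least 33.9-fold higher (edgeR adjusted p = 1.81e-05). It passed the filter on low counts through the Sox1posGP libraries. In NSC its levels were 0.0895, 0.276 and 0.061 CPM, and in NR 0.369, 0.419 and 0.45 CPM, from 14 and 35 counts in all.

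Sox1posGP exceeded NSC 26.9-fold (95% counting interval 14.8 to 52.4) and NR 8.38-fold (5.4 to 13.2) over pooled counts, with edgeR adjusted p of 2.37e-06 and 3.27e-05. *Nkx2-4* was thus the only gene of the 10 whose highest group was Sox1posGP, and the order of groups was Sox1posGP, NR, NSC and Baseline. NR exceeded NSC with a log2 fold change of 1.59 (SE 0.48, edgeR adjusted p = 0.0167), which was 2.33 without NSC 2 and lost its call after thinning all libraries to the smallest total (2.00, 0.145). Leaving out NSC 2 moved the value of Sox1posGP against NSC from 4.66 to 5.43. NR was at least 4.04-fold above Baseline (edgeR adjusted p = 0.00119) and NSC at least 1.26-fold (0.024). The NSC call was lost without NSC 2 (edgeR adjusted p = 0.0697, with p above 0.05), without Baseline 1 (0.118) and after thinning (0.3). The level in Sox1posGP stayed low on an absolute scale, at 2.07 ± 0.126 CPM per kb (SD, n = 3), compared with 6.22 ± 0.274 for *Ptch1* in the same libraries.

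The region before the start of *Nkx2-4* is printed because this gene was called higher in Sox1posGP in every alternative run. The 150 bases before its annotated start, at chr2:147085446-147085595 on the minus strand (RefSeq sequence, GRCm38.p6), hold CATTGTT, the reverse complement of AACAATG, the letters searched for a SOX motif. It is in capitals.
Nkx2-4 promoter: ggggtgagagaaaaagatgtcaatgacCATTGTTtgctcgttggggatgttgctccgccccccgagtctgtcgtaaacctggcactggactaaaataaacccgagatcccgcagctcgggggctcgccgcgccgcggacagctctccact
Among the 8 members with an entry in the RefSeq promoter windows of 250 bases before to 50 after the start, *Nkx2-4* was the only one with AACAATG on either strand, and 3.78% of 32851 windows hold it. These letters were chosen after this sequence was seen, and a match is a description of letters only. The letters GACCACCCA, searched on both strands for a GLI motif, were in 0 of the 8 windows and in 0.253% of all. At that share 0 of 8 cannot be told from the rate over all windows. *Shh* and *Gli1* have no window, and sites outside the windows were not searched. The 8 windows held 12 to 47 CpG, against a median of 7 over all windows.

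Genes around *Nkx2-4* were called in both directions in Sox1posGP, in shares near those over all genes. Within 1 Mb on either side, 11 other genes were tested, with a median log2 fold change of -0.38. Of these 2 were called higher, where 21.6% of all genes tested were, and 3 lower, where 22.7% were. *6430503K07Rik*, among the 11, had 0 counts in both groups and could not be called. *Xrn2*, a nuclear exonuclease gene whose end lies 5.32 kb away, had a value of 0.18 (SE 0.09, edgeR adjusted p = 0.157) and a mean of 226 CPM in Baseline and 256 in Sox1posGP. *Pax1*, a paired box gene of sclerotome and thymus 276 kb away, had no counts in Baseline and a mean of 1.37 CPM in Sox1posGP (edgeR adjusted p = 0.0112). *Foxa2*, 957 kb away, was higher by 0.96 (SE 0.38, edgeR adjusted p = 0.0658). *Insm1*, *Ralgapa2* and *Kiz* were lower by 0.79 (-0.79), 0.39 (-0.39) and 0.38 (-0.38). This window was set after the values of *Nkx2-4* were seen.

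**Figure D3:**
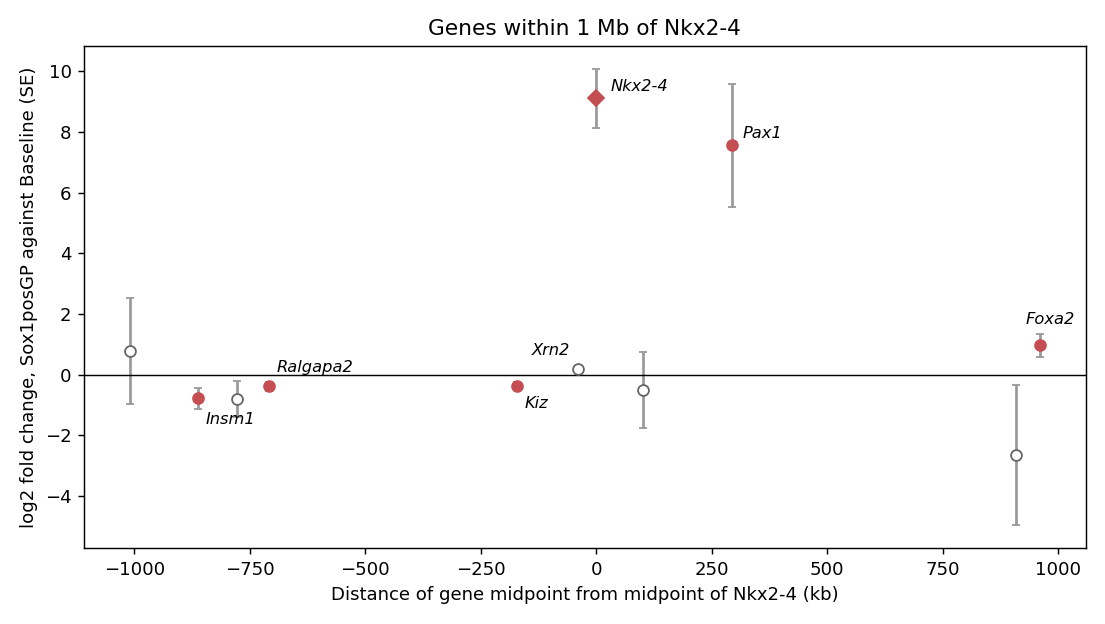
Fitted log2 fold change of Sox1posGP against Baseline, with SE, for *Nkx2-4* (diamond) and the 10 tested genes within 1 Mb that had a count in either group, against the distance between gene midpoints in kb. Filled points were called and open points were not; *Nkx2-4* and *Pax1* had 0 counts in Baseline, so their plotted values depend on the prior count and are no measure of size.

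*Nkx2-1*, which marks the ventral forebrain and also lung and thyroid, had 0 counts in all 6 NPC libraries. In NSC it had 50, 12 and 47 counts, or 1.12, 0.414 and 1.43 CPM, and in NR 5, 5 and 17 counts, or 0.308, 0.161 and 0.478 CPM. The NSC libraries all had more than Baseline or Sox1posGP, and NSC overlapped with NR. Against the floor over the group, NSC was at least 9.8-fold above Baseline and at least 5.4-fold above Sox1posGP, and NR at least 3.12-fold and 1.72-fold. It failed the filter on low counts, and with no filter NSC and NR were called above Baseline (edgeR adjusted p = 2.93e-08 and 9.51e-04). The related *Nkx2-4* had counts in Sox1posGP where *Nkx2-1* had none. The 6 lung and thyroid markers summed to 0 to 0.358 CPM in Baseline, 0.157 to 0.667 in Sox1posGP, 0.76 to 2.22 in NSC and 2.29 to 5.73 in NR, with *Sftpc*, the surfactant gene of alveolar cells, at 0 in NR and in both NPC groups.

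*Nkx2-9*, a gene of the most ventral progenitors beside the floor plate, showed the widest span. It had 2, 0 and 0 counts in Baseline and 1, 0 and 2 in Sox1posGP, both at or under the floor. In NSC it reached 33.4, 88.1 and 33.5 CPM, and in NR 5.48, 35.5 and 13.6 CPM. Over pooled counts it was 694-fold higher in NSC than in Baseline (95% counting interval 192 to 5731) and 290-fold higher in NR (80.2 to 2397), with edgeR adjusted p of 3.12e-06 and 2.86e-05. Sox1posGP lay 255-fold below NSC (87.1 to 1236) and 107-fold below NR (36.4 to 517), with edgeR adjusted p of 1.26e-05 and 1.51e-04. Each group varied widely, with NSC 2 and NR 2 highest. NR was called below NSC (-1.49, SE 0.51, edgeR adjusted p = 0.026) although they overlapped, and the value was -0.87 without NSC 2 (0.139) and -2.40 without NR 2. The call was lost in a fit of only the 2 groups (-1.52, edgeR adjusted p = 0.104) and with DESeq2's Wald test (-1.49, DESeq2 adjusted p = 0.169).

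Fitted values of *Nkx2-9* moved with single libraries as well. Without NSC 2 the log2 fold change against Baseline was 8.79 in place of 9.42 and that of Sox1posGP against NSC was -7.39 in place of -8.04. Without NR 2 the NR value against Baseline was 7.02 in place of 7.93 and that of Sox1posGP against NR was -5.65 in place of -6.55. Sox1posGP 2 and Sox1posGP 3 moved the last to -5.84 and -7.42 and that against NSC to -7.33 and -8.91. Baseline 1 holds both Baseline counts. Without it Baseline was at 0, and the fitted values of NSC and NR, 12.99 and 11.50, then depend on the prior count.

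*Nkx6-1*, a determinant of ventral progenitors and motor neurons, was present at a low level in NPCs. It stood at 5.01, 6.14 and 5.22 CPM in Baseline and 4.92, 3.77 and 3.67 CPM in Sox1posGP. In NSC it stood at 147, 180 and 150 CPM, and in NR at 30, 81.4 and 58.7 CPM. Every NSC library lay above every NR library and every NR library above the NPC libraries. The log2 fold change against Baseline was 4.88 in NSC (SE 0.31, edgeR adjusted p = 8.45e-09) and 3.40 in NR (SE 0.31, 2.39e-07), and NR was lower than NSC (-1.48, SE 0.24, 2.42e-04). All Sox1posGP libraries were below those of Baseline, but the difference was not called (-0.43, 95% interval -1.35 to 0.49, edgeR adjusted p = 0.481). Sox1posGP lay far below NSC (-5.31, SE 0.34, edgeR adjusted p = 1.28e-08) and NR (-3.83, SE 0.35, 3.05e-07).

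*Nkx6-2*, its paralogue with a related role, was lower per kilobase in NPCs, at a mean of 0.421 CPM per kb against 1.74 for *Nkx6-1* in Baseline. It had 3, 3 and 5 counts in Baseline and 1, 2 and 3 in Sox1posGP. These are 0.179, 0.419 and 1.04 CPM against 0.29, 0.314 and 0.5 CPM, and they overlapped. In NSC it reached 80.3, 127 and 83 CPM and in NR 10.3, 51.3 and 32 CPM. Pooled counts were 245-fold higher in NSC than in Baseline (95% counting interval 137 to 491) and 91.3-fold higher in NR (51 to 183), with edgeR adjusted p of 1.62e-07 and 2.10e-06. Sox1posGP lay 247-fold below NSC (114 to 674) and 92.2-fold below NR (42.3 to 251), with edgeR adjusted p of 4.67e-07 and 7.56e-06. NR was lower than NSC (-1.62, SE 0.39, edgeR adjusted p = 0.0034) with no overlap. Leaving out Baseline 1 or Baseline 3 moved the fitted NSC value from 7.92 to 7.14 or 8.55 and the NR value from 6.30 to 5.52 or 6.93. The NPC groups differed by -0.05 with a 95% interval from -3.71 to 3.61. *Nkx6-2* shares 246 exonic bases with *Inpp5a* on the opposite strand, which had up to 2207 counts, so its few NPC counts are uncertain.

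Per kilobase the order of the 10 genes differed between NSC and NPCs. In NSC the homeobox genes led, with *Nkx6-2* at 74.4 ± 20.1 CPM per kb (SD, n = 3), *Nkx6-1* at 50.8 ± 5.81 and *Nkx2-9* at 40.9 ± 24.9, followed by *Ptch1* at 25.9 ± 5.83. With the union of exons as the length, *Nkx6-2* came to 50.7, beside 50.8 for *Nkx6-1*, and *Ptch1* to 14.1. In Baseline *Ptch1* led at 9.13 ± 0.642, followed by *Gli3* at 3.65 ± 0.239, *Nkx6-1* at 1.74 ± 0.191 and *Gli2* at 1.24 ± 0.289. The ranges of mean ± SD of the 3 leading homeobox genes in NSC overlapped, whereas those of *Ptch1* and *Gli3* in Baseline did not. By library *Nkx6-2* lay above *Nkx6-1* in all of NSC, at 61.8, 97.6 and 63.9 against 47, 57.5 and 47.9 CPM per kb of longest coding transcript. *Shh* stood at 6.73 ± 2.8 CPM per kb in NSC and 13.3 ± 10.7 in NR.

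The 4 groups were also compared by the number of members called. In NSC against Baseline all 9 genes tested were called higher, where 42.7% of all genes tested were, and 0 were called lower, where 32.5% were; without the filter on low counts *Nkx2-1* was called higher as well. In NR against Baseline 7 were called higher, where 44.2% of all genes were, and 0 lower, where 32.8% were. The genes not called there were *Ptch1* and *Gli3*. In NR against NSC 2 were called higher (29.5% of all genes) and 7 lower (25.8%). In Sox1posGP 8 were called lower than in NSC (39.9% of all genes) and 7 lower than in NR (42.9%), with *Nkx2-4* called higher in both (30.0% and 30.8%). The median log2 fold change of the 9 was 4.88 in NSC and 5.84 in NR against Baseline, beside 0.20 and 0.19 over all genes. These comparisons share libraries, so their counts are not independent of each other.

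**Figure D4:**
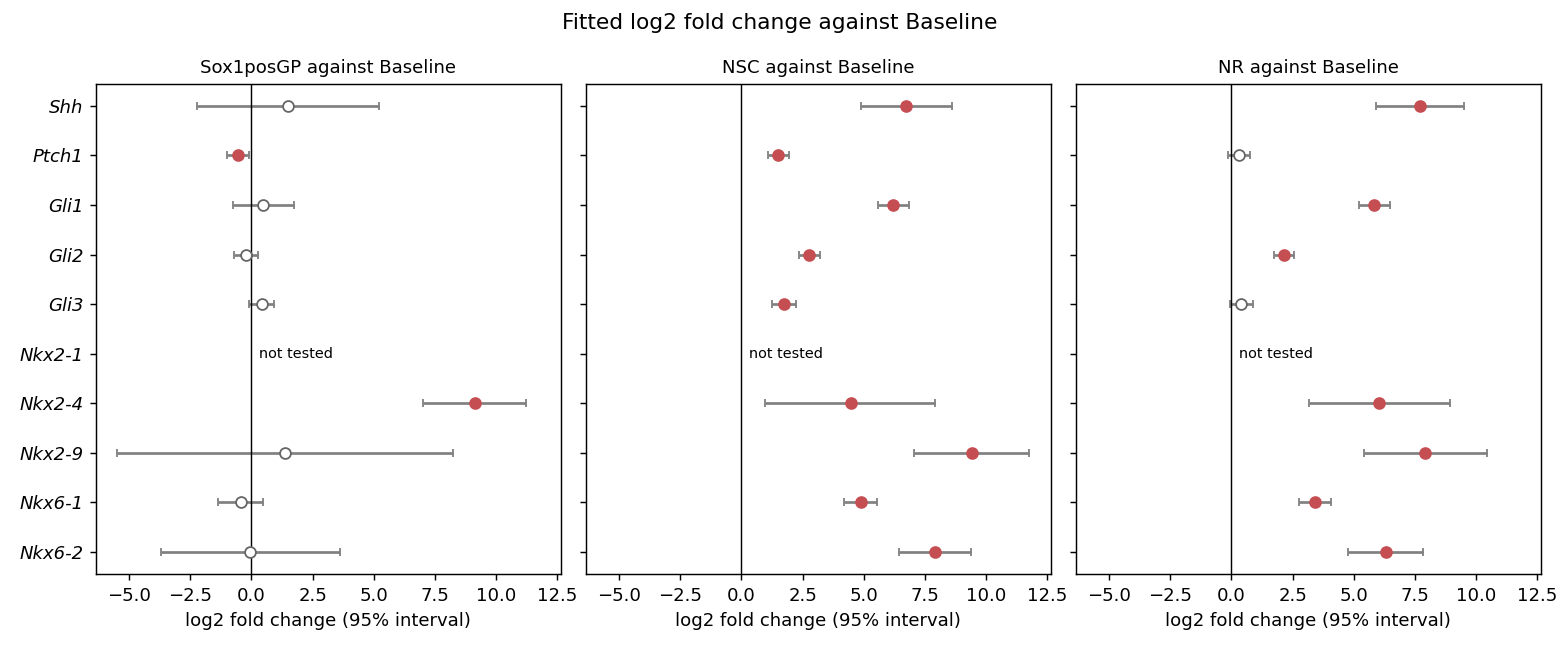
Fitted log2 fold change of each gene against Baseline in Sox1posGP, NSC and NR, with 95% intervals from edgeR. Filled points were called and open points were not; NSC values lie right of 0 for all 9 genes tested, while in Sox1posGP only *Ptch1* (-0.55) and *Nkx2-4* were called, and the *Nkx2-4* values depend on the prior count because Baseline had 0 counts.

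Other genes of the pathway were read from fixed lists. Their counts are to be read against all genes tested, of which 21.6% were higher and 22.7% lower in Sox1posGP than in Baseline, 42.7% and 32.5% in NSC, and 44.2% and 32.8% in NR. Among 7 genes of Hedgehog ligands and their release, 6 were tested, and 1 was lower and 0 higher in Sox1posGP than in Baseline (median 0.87). In NSC 4 were higher (median 3.26) and in NR 3 (median 2.94). The Sox1posGP median lies between *Hhat* (0.85) and *Dhh* (0.89), both uncalled, with 0 to 3 and 1 to 18 counts per NPC library. *Scube2*, which helps release the ligand, was the gene that was lower in Sox1posGP, at 0.379 ± 0.343 CPM against 8 ± 0.962 in Baseline (log2 fold change -4.19, SE 0.69, edgeR adjusted p = 2.95e-04). Its relatives *Scube1* and *Scube3* rose to 131 ± 12.6 and 30.7 ± 2.1 CPM in NSC from 0.832 ± 0.249 and 0.312 ± 0.0937 in Baseline. *Hhat*, which attaches the lipid to the ligand, stood at 4.39 ± 1.18 CPM in NSC and 0.0597 ± 0.103 in Baseline (edgeR adjusted p = 3.08e-06).

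Of 8 receptors and modulators at the membrane, 2 were higher and 2 lower in Sox1posGP than in Baseline (median -0.04), 4 higher and 1 lower in NSC (median 0.51), and 2 higher and 2 lower in NR (median 0.04). *Smo*, which encodes Smoothened, was level between the NPC groups, at 125 ± 14.8 CPM in Baseline and 118 ± 14.9 in Sox1posGP (log2 fold change -0.07, SE 0.14, edgeR adjusted p = 0.75), and rose to 234 ± 9.06 in NSC (edgeR adjusted p = 3.69e-05). *Hhip*, a ligand-binding antagonist and pathway target, was lower in Sox1posGP at 9.33 ± 1.15 CPM against 19 ± 2.89 in Baseline (-1.05, SE 0.17, edgeR adjusted p = 2.91e-04), and it stood at 20.4 ± 1.1 in NSC and 19 ± 3.07 in NR. *Gas1*, a co-receptor, stood at 303 ± 11.2 CPM in Baseline and 301 ± 16.8 in Sox1posGP but was lower in NSC at 108 ± 23.6 (-1.49, SE 0.14, edgeR adjusted p = 4.70e-07) and in NR at 53.3 ± 7.89. *Lrp2*, an endocytic co-receptor, stood at 26.9 ± 9.49 CPM in NSC against 1.22 ± 0.39 in Baseline.

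Of 10 genes of signal transduction 2 were higher and 3 lower in Sox1posGP than in Baseline (median -0.11), 7 higher and 2 lower in NSC (median 0.94) and 5 higher and 3 lower in NR (median 0.27). *Sufu*, which restrains the Gli proteins, was lower in Sox1posGP at 39.4 ± 2.97 CPM against 53 ± 5.02 (-0.42, SE 0.13, edgeR adjusted p = 0.017) and higher in NSC at 130 ± 9.38 (1.30, SE 0.12, 2.62e-07). *Stk36*, a kinase gene of the pathway, rose to 5.42 ± 0.625 CPM in Sox1posGP from 2.9 ± 0.254 (0.91, SE 0.20, edgeR adjusted p = 0.00287). *Evc* and *Evc2*, which encode a pair of ciliary proteins beside Smoothened, had 0 to 5 counts in each NPC library and stood at 26 ± 2.32 and 33.6 ± 3.66 CPM in NSC. Among 8 genes of the primary cilium, through which the signal passes, 1 was higher and 3 lower in Sox1posGP (median -0.17), 4 higher and 3 lower in NSC (median 0.37) and 2 higher and 3 lower in NR (median 0.10). The shares of cilium genes called in NSC were close to those over all genes. *Ift88*, a transport gene of the cilium, stood at 14.4 ± 1.18 CPM in NSC and 3.72 ± 0.885 in Baseline (edgeR adjusted p = 1.30e-06).

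Among 9 other genes of ventral domains 8 were tested, and 2 were higher and 2 lower in Sox1posGP than in Baseline (median -0.43), while 5 were higher and 2 lower in NSC (median 1.47) and in NR (median 2.06). *Olig2* and *Olig1*, which mark motor neuron and oligodendrocyte progenitors, were highest in Baseline. *Olig2* stood at 684 ± 39.8 CPM in Baseline, 331 ± 10.2 in Sox1posGP, 28.3 ± 4.17 in NSC and 9.87 ± 6.41 in NR. It was lower in Sox1posGP (-1.05, SE 0.28, edgeR adjusted p = 0.00811) and in NSC (-4.60, SE 0.32, 1.62e-08). *Olig1* stood at 1757 ± 31.8 CPM in Baseline, 1373 ± 62.5 in Sox1posGP and 4.94 ± 0.792 in NSC. By contrast *Nkx2-2*, another homeobox gene of the ventral tube, had 1 to 6 counts in the Baseline libraries and 0 to 2 in Sox1posGP and stood at 24.9 ± 8.97 CPM in NSC and 10.2 ± 4.46 in NR. Baseline thus held *Olig2* and *Olig1* at their highest levels while *Shh* and *Gli1* were near the floor.

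The genes whose pattern over the 12 libraries was most like that of *Ptch1*, by Pearson's r of log2 CPM among 17002 genes, were *Plagl2* (0.984), *Ntn1* (0.984), *Dvl3* (0.983) and *Eif4g3* (0.982). For *Nkx2-1* they were *Epha3* (0.993), *Mir219a-2* (0.993), *Cnpy1* (0.988) and *Slc17a6* (0.986) among 17003 genes. The libraries share group and depth, and for *Nkx2-1* most of the spread is between libraries with and without counts, so these values describe likeness only.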

How the data were processed

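The authors isolated total RNA, amplified cDNA with SMART-Seq v4 and deposited whole-number counts per Ensembl gene, without normalization. The submitters' processing notes name STAR 2.6, RSEM 1.1.14 and mm10. Whether the counts are rounded RSEM estimates, and whether strand was used, is not stated in the sources used here. Libraries were assigned to groups by title. All 12 columns and 45706 genes were used, and 563 genes without a symbol held 0.124% of counts.

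Symbols, positions and transcripts came from GENCODE M21 and promoters from RefSeq (GRCm38.p6), where 8 of the 10 members have an entry. Counts were scaled by TMM and filtered by filterByExpr over the 4 groups, and glmQLFit and glmQLFTest of edgeR 4.0.16 (R 4.3.3, limma 3.58.1) used the 12 libraries together, without a block. Python 3.11.15 (matplotlib 3.10.9, pandas 2.3.3, scipy 1.17.1) served for summaries and plots. Called genes had an adjusted p under 0.1 (Benjamini-Hochberg, 17003 genes) and p under 0.05. SE was taken as the fold change, on the log2 scale, over the root of the F statistic. The prior count was 0.125 for fold changes and 2 for log2 CPM. Ratios of pooled counts carry exact 95% binomial (Clopper-Pearson) counting intervals. The calls were tested on simulated data.

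Same-numbered libraries of NR and NSC deviated together (correlations 0.229 to 0.49, all 3 pairs above 0.1), which by the rule used counts as paired, although no label says so and a differently numbered pair (NR 3 with NSC 1) reached 0.301. In the other comparisons they lay between -0.0472 and 0.0619.

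All members were named. Of 16 other lists, counts are given, and genes called over 4-fold against Baseline were named, at most 4 per list, with *Smo*, *Sufu* and *Hhip*. Some genes and sequences that this rule covers are not reported here. The 7 cell type marker lists are given by their summed level, with some genes named after their values were seen. Members and lists were chosen with earlier results of these data known. Alternatives were DESeq2 1.42.0 (Wald test, size factors), upper-quartile scaling, library totals, no filter, at least 10 counts in 3 libraries, thinning, fits of 2 groups, the replicate block, other thresholds, omission of each replicate and, added later, exon-union lengths.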

Additional observations from a re-analysis of the deposited data

How the results depend on the processing

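Of 54 fold changes of the members, 809 of 858 values under alternatives kept their direction and their side of the threshold. With the replicate number as a block every call was kept, and the numbers of members called were 1 higher and 1 lower in Sox1posGP against Baseline and 2 higher and 7 lower in NR against NSC, as without the block. The number of members called lower in Sox1posGP than in Baseline, 1, fell to 0 at an adjusted p under 0.05, over 4-fold, with library totals alone and without any 1 replicate (lowest 0, highest 0). The number called higher, 1, was 2 with no filter on low counts and in a fit of only the 2 groups. In NR against NSC the 2 called higher became 1 at an adjusted p under 0.05, with DESeq2's Wald test, thinned to the smallest total and in a fit of only the 2 groups, 0 over 4-fold, and 1 to 2 without 1 replicate, and the 7 called lower became 0 over 4-fold. Of 204 such counts 184 stayed within 1.5 times. Uncalled values that changed direction were *Nkx6-2* in Sox1posGP against Baseline (0.02 with upper-quartile scaling, 0.06 with library totals alone, 0.24 thinned, and -0.79 to 0.56 without 1 replicate), *Gli1* there (-0.04 to 0.73 without 1 replicate), and *Gli3* in Sox1posGP against NR (-0.01 with DESeq2, -0.00 with DESeq2 size factors and with upper-quartile scaling, and -0.10 to 0.13 without 1 replicate). The cause was not tested. Library totals alone moved the median of all genes by 0.12 in NSC against Baseline, and DESeq2's Wald test moved it by -0.20 to 0.19 over the comparisons. Under 3 other scalings 0 of the called genes of the 115 tested in the lists changed sign. Fitted values of *Nkx2-4* against Baseline, where it had 0 counts, ranged from 6.50 to 9.24 in Sox1posGP. Of 200 levels recomputed, 10 moved by more than 1 SD, all with the union of exons as the length, an alternative added after seeing the data. At 3407066 to 6315574 counts per Sox1posGP library, differences of *Shh*, *Gli1*, *Nkx2-9* and *Nkx6-2* between NPC groups were not detectable unless large.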

Other observations

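Genes of intermediate and dorsal domains, which Hedgehog signalling is known to repress, were mostly higher in NSC and NR than in Baseline. Of 9 such genes 8 were higher and 1 lower in NSC than in Baseline (median log2 fold change 3.74), 7 higher and 2 lower in NR (2.54), and 2 higher and 3 lower in Sox1posGP (-0.29). Over all genes 42.7%, 44.2% and 21.6% were called higher and 32.5%, 32.8% and 22.7% lower in these comparisons. *Msx1*, of the dorsal midline, was lower in NSC (-1.43) and NR (-1.92), and *Pax6*, a broad progenitor gene, was lower in NR (-0.77). *Dbx1*, of the intermediate tube, stood at 104 ± 7.92 CPM in NSC, 35.3 ± 13 in NR, 0.51 ± 0.315 in Sox1posGP and 0.239 ± 0.216 in Baseline (SD, n = 3). *Pax3*, a dorsal gene, stood at 40.3 ± 14.2 CPM in NSC and 0.392 ± 0.357 in Baseline (log2 fold change 6.47, SE 0.56, edgeR adjusted p = 1.66e-07), and *Pax7*, also dorsal, had 2 counts in each Baseline library and 167 to 390 in NSC. *Msx2*, a relative of *Msx1*, was higher in Sox1posGP than in Baseline, but its Sox1posGP libraries had 3 to 18 counts and spread over 1.49 ± 1.2 CPM (edgeR adjusted p = 3.00e-04).

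Of 10 genes of ventral neurons 3 were higher and 1 lower in Sox1posGP than in Baseline (median 0.57), 7 higher and 2 lower in NSC (3.16) and 8 higher and 1 lower in NR (3.50). *Isl1*, of motor neurons, rose to 3.5 ± 0.737 CPM in Sox1posGP from 1.28 ± 0.354 (1.46, SE 0.46, edgeR adjusted p = 0.0229). *Lhx3*, of motor neurons and V2 interneurons, had 0 counts in all NPC libraries, 133 to 220 in NSC and 28 to 86 in NR. *Foxn4*, of V2 progenitors, stood at 9 CPM in NSC and 0.0398 in Baseline, and *Evx1*, of V0 interneurons, at 1.1 CPM in NR and 0 in Baseline. Of 14 genes of the ventral forebrain and hypothalamus 11 were tested, with 3 higher and 0 lower in Sox1posGP (median 0.43), 7 higher and 3 lower in NSC (2.22) and 7 higher and 4 lower in NR (1.92). *Vax1*, *Six6* and *Otp* had 0 or 1 count in each NPC library and stood at 2.22, 5.39 and 2.1 CPM in NSC, whereas *Hmx2* was lower in NSC at 0.159 ± 0.0604 CPM against 2.14 ± 0.207 in Baseline (-3.69, SE 0.38, edgeR adjusted p = 9.85e-07).

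Among 5 proliferation genes reported as Hedgehog targets 1 was higher and 1 lower in Sox1posGP (median 0.07), 2 higher and 3 lower in NSC (-0.68) and 1 higher and 3 lower in NR (-1.19). *Mycn* stood at 7.68 ± 0.444 CPM in Baseline, 7.78 ± 1.75 in Sox1posGP and 291 ± 67.8 in NSC (edgeR adjusted p = 2.36e-11), while *Cdk6* was lower in Sox1posGP at 82.8 ± 6.65 against 148 ± 5.35 (-0.84, SE 0.26, edgeR adjusted p = 0.0189). *Ccnd1*, the cyclin D1 gene, was higher there at 209 ± 11.3 CPM against 109 ± 12.5 (0.94, SE 0.15, edgeR adjusted p = 2.67e-04). The 7 neuron markers summed to 481 to 509 CPM in Baseline, 426 to 441 in Sox1posGP, 589 to 742 in NSC and 331 to 503 in NR. *Map2* made up most of the NPC sums and was lower in NR than in Baseline (-3.60), whereas *Tubb3*, *Stmn2*, *Dcx*, *Elavl3* and *Elavl4* were each higher in NR (4.64, 7.67, 4.66, 3.31 and 2.69). The 7 neural crest markers summed to 32.3 to 38.8 CPM in Baseline and 45.7 to 52.5 in Sox1posGP. They summed to 817 to 2652 in NSC and 1262 to 5789 in NR. The collagen genes *Col1a1* and *Col3a1* made up most of the latter sums, with means of 848 and 1126 CPM in NSC and 1841 and 1738 in NR. *Sox10* was at 0 in both NPC groups and at 0.385 and 0.563 CPM in NSC and NR. Of this list only *Snai2* was called between the NPC groups, higher in Sox1posGP (5.65, edgeR adjusted p = 7.67e-05). The part of neurons and neural crest cells in the values of NSC and NR was not tested.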
